A study of Mus musculus with 10 samples.

Results

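The Fc receptors and the ITAM signalling genes around them were examined in tumour macrophages of mice given a glutamine antagonist. The group holds 10 genes, taken by symbol from tables of 46957 loci: Fcgr1, Fcgr3, Fcgr4, Fcgr2b, Fcer1g, Tyrobp, Syk, Inpp5d, Fcgrt and Fcrls. Each was listed alone at its locus, and all 10 passed the filter on low counts. BALB/cJ mice carried tumours of 4T1, a murine breast cancer line, placed in the mammary fat pad, and this host and tumour were shared by both groups. The JHU083 group (n = 5) received 1 mg/kg of JHU083, a prodrug of the glutamine antagonist 6-diazo-5-oxo-L-norleucine, on days 7 to 13. The vehicle group (n = 5) received PBS, and both groups were harvested on day 14. Viable CD45+ CD11b+ F4/80+ cells without CD8, Ly6C or Ly6G were sorted, so all values are for a sorted bulk population. The labels give neither the age of the mice nor whether each library came from 1 mouse, so p-values measure the spread between these libraries, which may be technical.

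Receptors for the Fc part of IgG let macrophages take up antibody-coated targets. The activating receptors encoded by Fcgr1, Fcgr3 and Fcgr4 signal through the common gamma chain, Fcer1g, whose tail carries an immunoreceptor tyrosine-based activation motif (ITAM). Phosphorylated ITAMs recruit the kinase Syk. The product of Fcgr2b binds IgG as well but carries an inhibitory motif (ITIM), which recruits the inositol phosphatase encoded by Inpp5d, and the balance of both kinds of receptor is known to set the threshold of macrophage activation.

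Library totals ranged from 11147869 to 15740695 fragments, and every one of the 10 genes had at least 2064 fragments in each library. Of 12500 loci tested, 2296 were higher and 2293 lower in JHU083 (edgeR quasi-likelihood test, adjusted p under 0.05), or 36.7% in either direction. With scaling to library size alone the split was 1564 higher and 3141 lower. In 3 vehicle and 2 JHU083 libraries the value given for the ribosomal-repeat loci Rn18s-rs5 and Gm42418 was 0, and in the others both together took 2.87% to 5.59% of the fragments. Where the call of a named gene was lost or its sign changed within either set of libraries, the values in both sets are given (for Fcrl1, the loss of the call alone). Macrophage identity genes were abundant, with a summed level of 13474 to 16870 CPM (fragment counts scaled to library size) in vehicle and 15073 to 18729 in JHU083, and 4 of 9 rose and none fell, with a median log2 fold change of 0.16. Transcripts of 4T1 epithelium were lower in JHU083 (7 of 7 genes, 278 to 651 CPM summed in vehicle and 94.2 to 204 in JHU083), as were 4 of 6 fibroblast genes (98.6 to 238 and 23.3 to 111 CPM). The part of these shifts in the results below was not tested.

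Under JHU083 the inhibitory receptor Fcgr2b rose 1.65-fold, the activating receptor Fcgr3 rose 1.42-fold, and Fcgr1 and the gamma chain Fcer1g did not rise. Syk, the neonatal Fc receptor gene Fcgrt and the receptor-like gene Fcrls also rose. In all, 6 of 10 genes were higher at an edgeR adjusted p under 0.05, where 18.4% of all loci tested were. None was lower, where 18.3% of all loci were (0 at an unadjusted p under 0.05 in edgeR, and 0 with DESeq2), although library-size scaling called 2 lower, Fcgr1 and Fcer1g, and limma-voom with sample weights called 1, Fcgr1. The higher count, which includes Fcgr4 (edgeR adjusted p = 0.0443), was 5 with library-size scaling, limma-voom or a block for same-numbered libraries (the replicate block). Of all 12500 loci 1564, 2942 and 1612 were higher in these fits. With 1 library left out, 5 or 6 of the 10 genes were higher. Within the libraries listing the ribosomal-repeat loci at 0 there were 4, beside 532 of 12717 loci, and within the others 5, beside 1274 of 12966. The median log2 fold change of the 10 genes was 0.38 and that of all loci tested 0.01. For 5 of the 10 genes every JHU083 library lay above every vehicle library, which held for 11.2% of all loci tested, while for 22.3% the groups were apart in either direction. In these bulk libraries fewer cells of a type and less RNA per cell cannot be told apart.

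**Figure D1:**
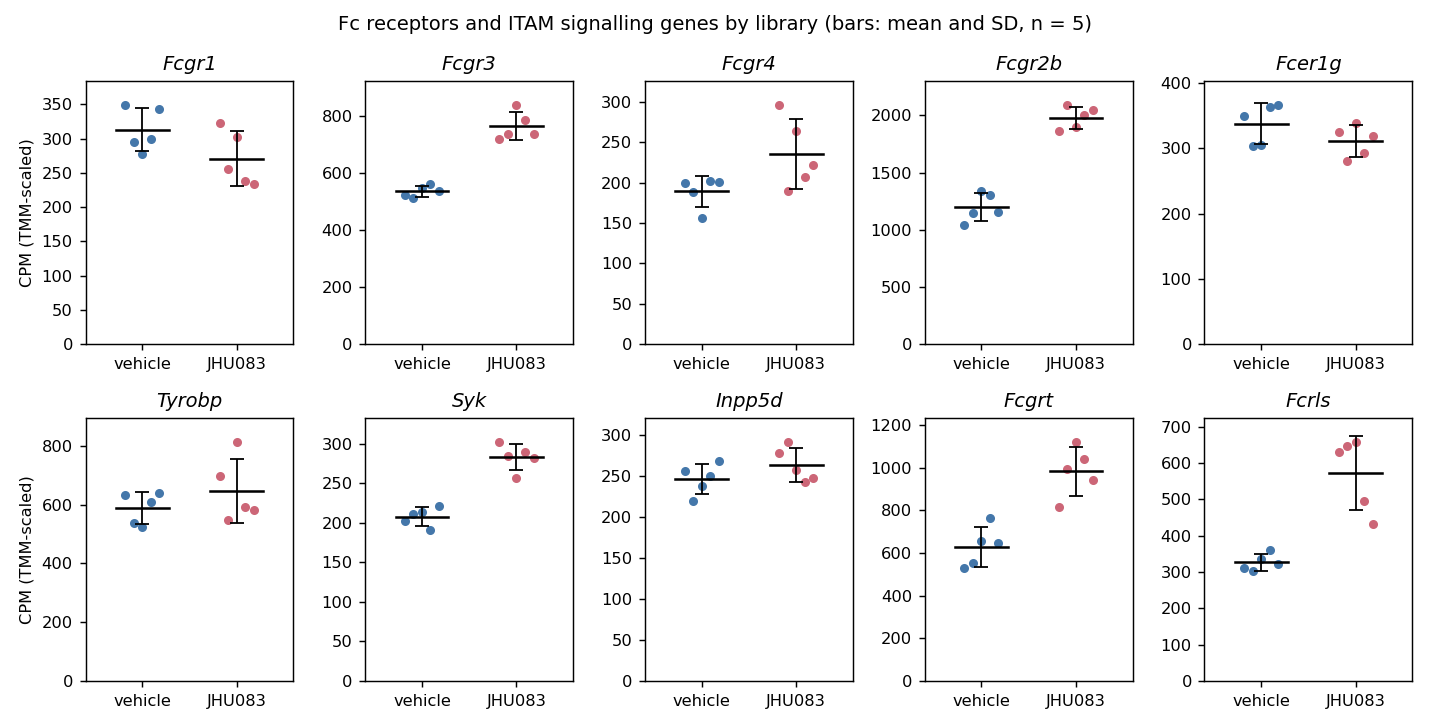
TMM-scaled CPM (y axis, from 0) of the 10 genes in each of the 5 vehicle and 5 JHU083 libraries (points), with the mean and SD (lines). For Fcgr3, Fcgr2b, Syk, Fcgrt and Fcrls all JHU083 points lie above all vehicle points, and for the other 5 genes the groups overlap.

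Most of the IgG receptor genes lie together. Fcgr2b (XLOC_003049, chromosome 1, 170958617 to 170976547, minus strand, GENCODE M21 on GRCm38), Fcgr4 (XLOC_001391, 171018920 to 171029761, plus strand), Fcgr3 (XLOC_003050, 171051174 to 171064935, minus strand) and Fcer1g (XLOC_003057, 171229572 to 171234365, minus strand) fall within 276 kb. Fcgr1 (XLOC_024246, 96282909 to 96293969, minus strand) is on chromosome 3. The others are Inpp5d on chromosome 1 (87620312 to 87720507, plus strand), Fcrls on chromosome 3 (87250758 to 87263738, minus strand), Tyrobp on chromosome 7 (30413760 to 30417585, plus strand), Fcgrt on chromosome 7 (45092990 to 45103851, minus strand) and Syk on chromosome 13 (52583173 to 52648792, plus strand), and all 10 are annotated as protein coding. Fcgr2b and Fcgr3 are close relatives: 5.42% of the distinct 75-base windows of the Fcgr3 transcripts also occur in Fcgr2b transcripts, and 1.63% of those of Fcgr2b occur in Fcgr3, so a small part of the fragments could be assigned to either. No other pair of the 10 genes shared such a window. Of the 5790 exonic bases of Fcgr2b, 155 overlap Gm38204 on the opposite strand, and the library kit as named in the labels does not mark strand.

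The 250 bases before the RefSeq start sites (GRCm38.p6) of the 4 IgG receptor genes are shown because the comparison of activating with inhibitory receptors rests on these genes. Capitals mark the letters GAGGAA on either strand, the core of many binding sites of the macrophage factor PU.1, and TTCNNNGAA, the core letters of gamma-activated STAT sites. For Fcgr3, the first of its start sites in the table is shown.
Fcgr1 (chr3:96293970-96294219, minus strand): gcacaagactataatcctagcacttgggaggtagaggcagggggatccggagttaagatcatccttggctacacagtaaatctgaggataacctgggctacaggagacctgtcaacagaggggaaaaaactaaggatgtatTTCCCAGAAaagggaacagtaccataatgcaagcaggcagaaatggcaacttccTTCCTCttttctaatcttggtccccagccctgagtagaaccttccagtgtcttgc
Fcgr3 (chr1:171059404-171059653, minus strand): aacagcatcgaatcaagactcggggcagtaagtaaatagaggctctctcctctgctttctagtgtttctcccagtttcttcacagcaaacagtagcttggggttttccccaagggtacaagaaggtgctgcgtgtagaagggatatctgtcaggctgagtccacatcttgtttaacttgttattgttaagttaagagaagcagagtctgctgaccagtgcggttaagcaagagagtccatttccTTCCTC
Fcgr4 (chr1:171018676-171018925, plus strand): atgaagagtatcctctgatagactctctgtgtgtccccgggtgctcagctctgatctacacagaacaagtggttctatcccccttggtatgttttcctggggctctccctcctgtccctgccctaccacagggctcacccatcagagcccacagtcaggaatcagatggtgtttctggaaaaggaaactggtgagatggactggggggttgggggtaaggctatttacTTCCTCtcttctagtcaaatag
Fcgr2b (chr1:170976072-170976321, minus strand): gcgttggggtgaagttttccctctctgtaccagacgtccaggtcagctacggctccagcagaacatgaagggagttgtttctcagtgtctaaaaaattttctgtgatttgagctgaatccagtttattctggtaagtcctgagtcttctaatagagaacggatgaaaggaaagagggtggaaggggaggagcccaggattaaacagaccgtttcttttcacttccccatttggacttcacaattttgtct
Each of the 3 activating receptor windows holds GAGGAA once, read on the opposite strand as TTCCTC, and the Fcgr2b window does not hold it. Fcgr1 alone among the 4 holds TTCNNNGAA, at bases -109 to -101 from the start. RefSeq gave start sites for 9 of the 10 genes, of which 6 had GAGGAA and 1 had TTCNNNGAA in this window. The windows of both Fcgr3 start sites overlap and share 1 match. Of 32817 start sites of all genes 23.3% held GAGGAA and 7.02% TTCNNNGAA. These are letter matches and not measured binding.

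Of the activating receptors, Fcgr3, which encodes the low-affinity receptor CD16, rose with no overlap between the groups. It was at 524, 515, 550.1, 562 and 538 CPM in vehicle replicates 1 to 5 and at 722, 736, 839.9, 788 and 739.6 CPM in JHU083 replicates 1 to 5. The lowest JHU083 library was above the highest vehicle library, and the log2 fold change was 0.51 ± 0.07 (SE, edgeR adjusted p = 7.88e-05).

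Fcgr4, an activating receptor of intermediate affinity, was at 199, 189, 156, 202 and 201 CPM in vehicle and at 296, 190.2, 264, 207 and 222 CPM in JHU083. JHU083 replicate 2 lay within the vehicle range, and the increase of 0.32 ± 0.12 on the log2 scale passed narrowly (SE, edgeR adjusted p = 0.0443). The call was lost with library-size scaling (0.24), with limma-voom and sample weights (0.24), and when any 1 of the 5 vehicle libraries or JHU083 replicate 1, 3 or 5 was left out (adjusted p up to 0.118). The increase was 0.51 among the libraries listing the ribosomal-repeat loci at 0 and 0.21 among the others, where it did not pass.

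Fcgr1, the high-affinity receptor CD64 and a common macrophage marker, did not follow. Its levels were 349, 295, 277, 299 and 343 CPM in vehicle and 323, 255, 302, 237 and 234 CPM in JHU083. The lowest 3 JHU083 libraries lay below all vehicle libraries and the other 2 within their range. The log2 fold change was -0.21 ± 0.10 (SE, edgeR adjusted p = 0.118, 95% interval -0.43 to 0.01), and it was 0.00 among the libraries listing the ribosomal-repeat loci at 0 and -0.38 among the others. It passed as lower with library-size scaling (-0.29) and without JHU083 replicate 1 (-0.28, edgeR adjusted p = 0.0390).

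The inhibitory receptor Fcgr2b had the most fragments of the 10 genes. It was at 1042, 1150.0, 1342, 1305 and 1156 CPM in vehicle and at 1863, 2091, 1896, 2003 and 2046 CPM in JHU083, a clear gap between the groups. The log2 fold change was 0.72 ± 0.09 (SE, edgeR adjusted p = 5.29e-05) and ranged from 0.68 to 0.77 with 1 library left out. Fcgr2b is also the Fc receptor of B cells, whose 6 markers summed to at most 4.91 CPM in any library. The 1 that could be tested, Cd79b, a chain of the B cell receptor, was higher in JHU083 (0.51, edgeR adjusted p = 0.0498), and the other 5 had at most 5 fragments each in any library. Their part in the Fcgr2b difference was not tested.

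**Figure D2:**
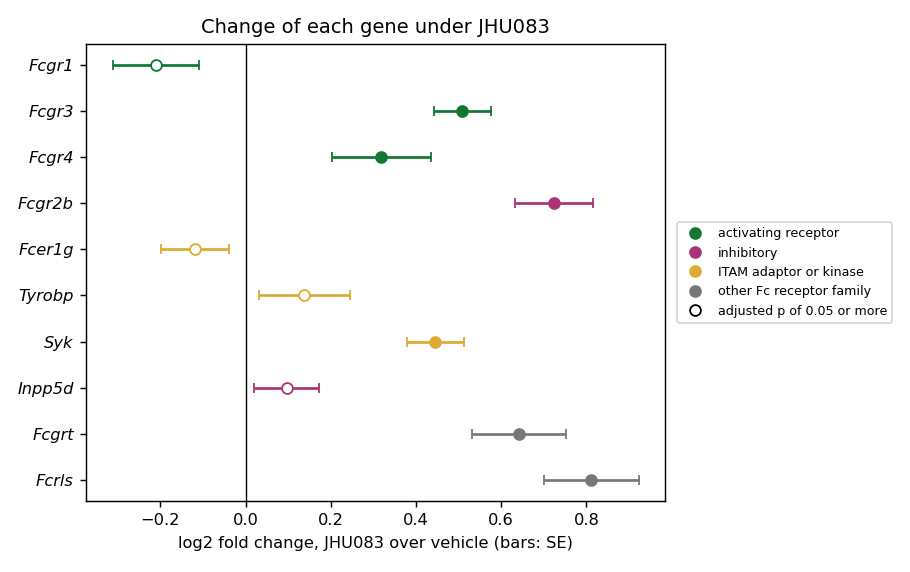
Log2 fold change of JHU083 over vehicle (x axis) with its SE for the 10 genes, coloured by role; open points did not pass an adjusted p of 0.05. Fcrls (0.81) and Fcgr2b (0.72) had the largest increases, and Fcgr1 (-0.21) and Fcer1g (-0.12) had negative values that did not pass, although both passed with library-size scaling.

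The activating and inhibitory receptors were then compared within each library as log2 ratios of CPM, which do not depend on library scaling. The ratio of Fcgr1 to Fcgr2b was -1.94 ± 0.28 in vehicle and -2.88 ± 0.27 in JHU083 (SD, n = 5), a difference of -0.94, or 0.52 times the vehicle ratio. It was lower in all 5 JHU083 libraries than in any vehicle library (exact two-sided permutation p = 0.0079, the smallest this design allows, adjusted over the 3 ratios p = 0.0238). The ratio of Fcgr3 to Fcgr2b went from -1.15 ± 0.11 to -1.37 ± 0.13 (SD, n = 5), a smaller difference of -0.22 with JHU083 replicate 3 within the vehicle range (exact permutation p = 0.0238, adjusted p = 0.0357). That call was lost without any 1 of vehicle replicates 1, 2 and 5 or JHU083 replicates 2, 4 and 5 (exact permutation, adjusted p = 0.0714 each). The ratio of Fcgr4 to Fcgr2b was -2.66 ± 0.27 in vehicle and -3.08 ± 0.33 in JHU083 (SD, n = 5), and the difference of -0.42 missed the threshold (exact permutation p = 0.0556, adjusted p = 0.0556), which it passed without vehicle replicate 3 (-0.53, exact permutation adjusted p = 0.0317) and without JHU083 replicate 1 (-0.53) or 3 (-0.48, exact permutation adjusted p = 0.0476 each). Within the libraries listing the ribosomal-repeat loci at 0, the differences were -0.64 for Fcgr1, -0.11 for Fcgr3 and -0.14 for Fcgr4, and within the others -1.15, -0.30 and -0.56. These sets hold too few libraries for an exact test to pass.

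**Figure D3:**
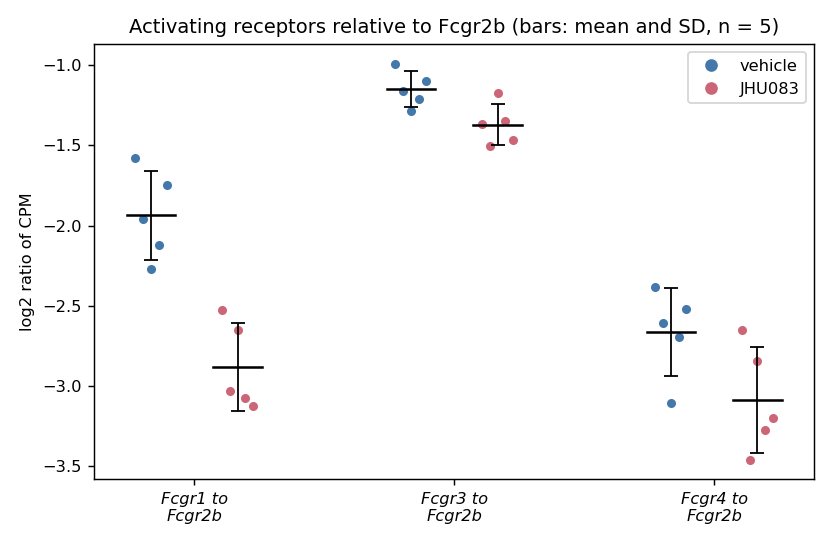
Log2 ratio of the CPM of each activating receptor to that of Fcgr2b (y axis) in the 5 vehicle and 5 JHU083 libraries (points), with the mean and SD (lines). The JHU083 points of Fcgr1 lie below all vehicle points, and those of Fcgr3 and Fcgr4 overlap with vehicle.

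The deposited FPKM values, which account for length, put the 4 IgG receptor chains on 1 scale. Their summed FPKM was 1442 to 1607 in vehicle and 2170.2 to 2268 in JHU083. Fcgr2b made up 48.9 ± 2.8% of this sum in vehicle and 55.3 ± 2.6% in JHU083, Fcgr3 28.7 ± 0.4% and 28.4 ± 1.1%, Fcgr4 10.97 ± 1.3% and 9.50 ± 1.7%, and Fcgr1 11.4 ± 1.3% and 6.80 ± 0.81% (SD, n = 5). The Fcgr2b shares of the groups overlapped slightly, with a vehicle maximum of 52.9% and a JHU083 minimum of 52.5%, whereas those of Fcgr1 did not overlap. Depth behind FPKM values is that of the fragment counts.

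**Figure D4:**
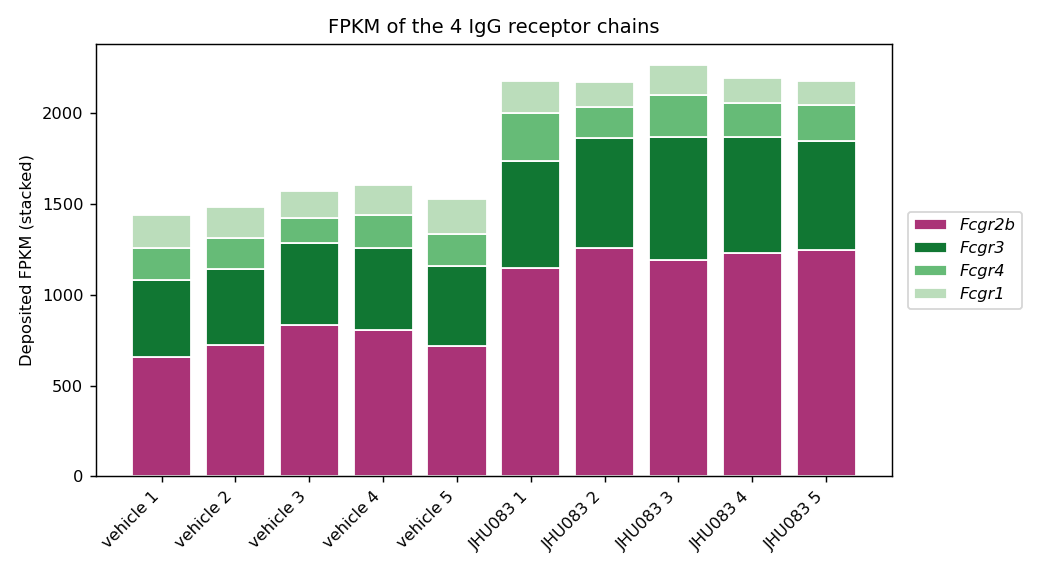
Deposited FPKM of Fcgr2b, Fcgr3, Fcgr4 and Fcgr1 (stacked bars, y axis from 0) in each library. The bars of the JHU083 libraries reach 2170.2 to 2268 and those of vehicle 1442 to 1607, and the Fcgr1 segments of the groups overlap in height.

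Of the signalling chains, neither Fcer1g nor Tyrobp passed the test. Fcer1g was at 350.3, 304, 306, 364 and 366 CPM in vehicle and at 326, 280.5, 338, 293 and 318 CPM in JHU083. The groups overlapped and the log2 fold change was -0.12 ± 0.08 (SE, edgeR adjusted p = 0.255, 95% interval -0.29 to 0.05), although library-size scaling called it lower (-0.20, edgeR adjusted p = 0.0403). The summed FPKM of Fcgr1, Fcgr3 and Fcgr4 was 1.15 ± 0.06 times that of Fcer1g in vehicle and 1.57 ± 0.07 times in JHU083 (SD, n = 5), with no overlap between the groups. Tyrobp, the ITAM adaptor DAP12 used by TREM and related receptors, lay between 523 and 639 CPM in vehicle and between 548 and 814 in JHU083 (log2 fold change 0.14 ± 0.11, SE, edgeR adjusted p = 0.332). Tyrobp was 0.35 higher among the libraries listing the ribosomal-repeat loci at 0 and 0.02 lower among the others, where the log2 fold change was -0.02, and neither value passed.

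Syk, the kinase that binds phosphorylated ITAMs, was at 203, 211, 214, 191 and 221 CPM in vehicle and at 303, 284, 257, 289 and 283 CPM in JHU083. Every JHU083 library was above every vehicle library, with a log2 fold change of 0.45 ± 0.07 (SE, edgeR adjusted p = 0.000211). The increase was 0.43 among the libraries listing the ribosomal-repeat loci at 0, where it did not pass, and 0.44 among the others. Inpp5d, the phosphatase of the inhibitory arm, lay between 219.7 and 268 CPM in vehicle and between 243 and 292 CPM in JHU083, and the difference did not pass (0.10 ± 0.08, SE, edgeR adjusted p = 0.339). On the deposited FPKM scale Inpp5d was 60.7 ± 6.6 in vehicle and 82.3 ± 8.1 in JHU083 (SD, n = 5), with no overlap, so the outcome for this gene differs between the columns. The scaled count per FPKM, which reflects the length that the authors' processing gave the locus, was 0.67 to 0.86 in JHU083 and 0.82 to 1.21 in vehicle relative to the vehicle mean for Inpp5d, while the JHU083 mean of each of the other 9 genes was between 1.00 and 1.02. The log2 ratio of Syk to Inpp5d in CPM was -0.24 ± 0.14 in vehicle and 0.10 ± 0.12 in JHU083 (SD, n = 5), with no overlap. In FPKM the same ratio was -0.65 ± 0.20 in vehicle and -0.64 ± 0.18 in JHU083 (SD, n = 5), with overlapping groups, so the separation was seen in the count column alone.

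The remaining family members rose. Fcgrt, which encodes the heavy chain of the neonatal Fc receptor that recycles IgG, was between 529 and 766 CPM in vehicle and between 814 and 1122 CPM in JHU083 (log2 fold change 0.64 ± 0.11, SE, edgeR adjusted p = 0.000581). Its increase was 0.57 among the libraries listing the ribosomal-repeat loci at 0, where it did not pass, and 0.73 among the others. Fcrls, an Fc receptor-like gene known from microglia, was at 311, 303, 335, 361 and 321 CPM in vehicle and at 631, 646, 659, 495 and 432 CPM in JHU083. JHU083 replicates 4 and 5 were the lowest of their group and still above all vehicle libraries, and the log2 fold change was 0.81 ± 0.11 (SE, edgeR adjusted p = 0.0001).

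On the FPKM scale the levels in vehicle ran from Tyrobp (1490.3 ± 133) through Fcgr2b (748 ± 70.3), Fcer1g (680 ± 58.7), Fcgr3 (438 ± 15.2), Fcgrt (389 ± 57.9), Fcgr1 (174 ± 15.4), Fcgr4 (167 ± 16.6), Fcrls (145 ± 9.999) and Inpp5d (60.7 ± 6.6) down to Syk (38.6 ± 2.3; SD, n = 5). The ranges overlapped between Fcgr2b and Fcer1g, between Fcgr3 and Fcgrt, and among Fcgr1, Fcgr4 and Fcrls, so their order there is not firm. In JHU083 Fcgr2b reached 1215 ± 46.1 FPKM, separate from Fcer1g (626 ± 45.4), whose range overlapped with those of Fcgr3 (625 ± 35.1) and Fcgrt (608 ± 67.4; SD, n = 5). Fcrls (256 ± 46.1) ranked above Fcgr4 (209 ± 38.5) and Fcgr1 (149 ± 19.0; SD, n = 5), though the ranges of neighbours in this order overlapped.

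After subtracting group means, Fcgr1, Fcgr4, Fcer1g and Tyrobp varied together over the 10 libraries, with Pearson r from 0.63 (Fcgr1 with Fcer1g) to 0.84 (Fcer1g with Tyrobp). Fcgr2b ran the other way, with r of -0.73 to Fcgr1, -0.62 to Fcgr4, -0.56 to Tyrobp and -0.37 to Fcer1g. These are descriptions over 10 libraries that share their depth and scaling. Among 5117 loci with an average log2 CPM of at least 5, those most like Fcgr2b were Slc12a7 (r = 0.96), Mospd2 (r = 0.95) and the locus of Smim10l1 and RP24-470M22.10 (r = 0.94). Those most like Fcer1g were Atp6ap1 (r = 0.99), Irf7 (r = 0.95) and Fam207a (r = 0.95).

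Other genes of the pathway were taken from 4 lists of 108 genes, of which 96 loci could be tested. Of these, 30 were higher and 11 lower, beside 18.4% and 18.3% of all loci. In either direction that was 42.7%, near the 36.7% of all loci. With library-size scaling 21 were higher and 15 lower, beside 1564 higher and 3141 lower of all 12500 loci. Among other Fc receptors only 4 of 12 could be tested. Fcrlb, an Fc receptor-like gene, fell from 72.6 ± 14.3 to 40.1 ± 8.94 CPM (SD, n = 5; log2 fold change -0.85 ± 0.17, SE, edgeR adjusted p = 0.00136), and the 1 that was higher, Fcrl1, named after its value was seen, had at most 38 fragments. The Fcrl1 call was lost within both sets of libraries, with library-size scaling, no filter, limma-voom or the replicate block, and without any 1 of vehicle replicates 1 to 4 or JHU083 replicates 1 and 2. The IgE receptor gene Fcer1a, a mast cell and basophil gene, had at most 11 fragments in any library. The 7 mast cell markers, Fcer1a among them, summed to 16.2 to 18.6 CPM in vehicle and 12.2 to 27.1 in JHU083. Of the 5 that could be tested, 1 was higher (Cpa3) and 1 lower (Mcpt4), with a median log2 fold change of 0.15. The part of mast cells in the results was not tested.

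Of the receptors that signal through ITAM adaptors or a hemITAM, 7 of 21 were higher and 4 lower (median log2 fold change 0.08), beside 18.4% and 18.3% of all loci. The higher count was 4 without vehicle replicate 2, vehicle replicate 4 or JHU083 replicate 1 and with the replicate block. In these fits 1941, 1918, 2072 and 1612 of 12500 to 12641 loci were higher. Within the libraries listing the ribosomal-repeat loci at 0, 7 were higher and 2 lower, beside 532 and 586 of all 12717 loci tested there. Within the others 3 were higher and 4 lower, beside 1274 and 1545 of 12966 loci. Cd300lb, an activating receptor of the CD300 family, rose from 32.5 ± 1.99 to 77.6 ± 10.8 CPM (SD, n = 5; log2 fold change 1.26 ± 0.10, SE, edgeR adjusted p = 1.71e-06). Clec7a, the beta-glucan receptor Dectin-1 with a hemITAM of its own, rose by 0.84 and Trem2, a lipid-binding receptor that signals through Tyrobp, by 0.66. For these 3 the groups did not overlap. Clec4d, a C-type lectin paired with Fcer1g, rose by 0.63, but the call was lost without vehicle replicate 4 or JHU083 replicate 1, 4 or 5 (edgeR adjusted p from 0.0522 to 0.0589). Those lower were Klrk1, the receptor NKG2D (-1.41), Trem3 (-0.98), Pilrb1 (-0.86) and Pilrb2 (-0.51). Klrk1 is also a natural killer cell gene. The 6 natural killer cell markers summed to 12.4 to 17.2 CPM in vehicle and 7.24 to 12.5 in JHU083, with Ncr1 at 7 fragments or fewer. Most of that sum came from the 1 locus that could be tested, listed with the symbols Gm44511, Klrb1b and Klrb1c, at 11.9 ± 1.31 and 9.13 ± 1.96 CPM (SD, n = 5; edgeR adjusted p = 0.0563). The part of these markers in the Klrk1 difference was not tested. Pilrb1 and Pilrb2 are similar genes, and Trem3 was low (at most 116 fragments). Trem3 is also found in neutrophils, whose 11 markers summed to 99.0 to 118 CPM in vehicle and 93.6 to 141 in JHU083. Of the 5 that could be tested, S100a8 (-1.40) and S100a9 (-2.18) fell with no overlap, Csf3r, which made up most of the sum, rose (0.53), and the median log2 fold change was -0.41. The part of these markers in the Trem3 difference was not tested. Within the libraries listing the ribosomal-repeat loci at 0 and within the others, the log2 fold changes were 0.80 and 0.53 for Clec4d, -0.63 and -1.28 for Trem3, and -0.22 and -0.75 for Pilrb2. Clec4d did not pass in the others, and Trem3 and Pilrb2 did not pass in those at 0.

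Among downstream kinases and adaptors 13 of 41 were higher and 1 lower (median log2 fold change 0.14), beside 18.4% and 18.3% of all loci. With library-size scaling 8 were higher and 4 lower, beside 1564 higher and 3141 lower of all 12500 loci. The counts were 16 higher and 3 lower both without JHU083 replicate 3 and with limma-voom. Beside them stood 2899 higher and 2930 lower of 12675 loci, and 2942 and 2918 of 12500. Within the libraries listing the ribosomal-repeat loci at 0, 4 were higher and 0 lower, beside 532 and 586 of all 12717 loci tested there. Within the others 8 were higher and 1 lower, beside 1274 and 1545 of 12966 loci. Vav2, a guanine nucleotide exchange factor, rose by 0.76 ± 0.08, and Pik3r5, a regulatory subunit of PI3-kinase gamma, by 0.71 ± 0.08 on the log2 scale (SE, edgeR adjusted p = 1.70e-05 and 2.33e-05). The Src-family kinase gene Fyn rose by 0.69 with overlapping groups, and Blnk, an adaptor downstream of Syk, by 0.61. The increase of Fyn was 0.31 among the libraries listing the ribosomal-repeat loci at 0, where it did not pass, and 0.89 among the others. Fyn is also a T cell gene, and the 6 T cell markers summed to 14.1 to 18.4 CPM in vehicle and 26.3 to 41.5 in JHU083. Most of that sum was Cd4, at 14.7 ± 1.37 and 31.8 ± 5.98 CPM (SD, n = 5), the only T cell marker that could be tested. The genes of the CD3 chains of the T cell receptor complex had few fragments, in all 34 in vehicle and 18 in JHU083 for Cd3e, 20 and 23 for Cd3d, and 37 and 65 for Cd3g. The part of these markers in the Fyn difference was not tested.

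Of ITIM receptors, phosphatases and other negative regulators 9 of 30 loci were higher and 5 lower (median log2 fold change 0.11), beside 18.4% and 18.3% of all loci. Within the libraries listing the ribosomal-repeat loci at 0 there were 3 higher and 2 lower, beside 532 and 586 of all 12717 loci tested there. Within the others there were 4 higher and 4 lower, beside 1274 and 1545 of 12966 loci. Cd33, a sialic acid-binding receptor, rose from 119.9 ± 7.31 to 246 ± 26.2 CPM (SD, n = 5; log2 fold change 1.03 ± 0.08, SE, edgeR adjusted p = 1.78e-06). Cd22, a Siglec best known from B cells, rose by 1.03 and Cd300a, an inhibitory CD300 family receptor, by 0.80, both with no overlap between groups. Ceacam1, an ITIM receptor at 5.42 ± 1.38 CPM in vehicle and 8.31 ± 1.47 in JHU083 (SD, n = 5), rose by 0.62 with overlapping groups. Pecam1, an ITIM receptor also made by endothelium, fell from 151 ± 32.5 to 52.5 ± 20.2 CPM (SD, n = 5; log2 fold change -1.52 ± 0.25, SE, edgeR adjusted p = 0.00035). The 4 endothelial markers were at 18.8 to 23.1 CPM summed in vehicle and 19.7 to 23.3 in JHU083. Among them Tie1 rose (0.56, edgeR adjusted p = 0.00425) and Cdh5 had a log2 fold change of -0.49 that did not pass, and their part in the Pecam1 difference was not tested. The adaptor gene Dok2 fell by 0.87 and Pilra, the inhibitory partner of the Pilrb receptors, by 0.61. Ptpn6, which encodes the phosphatase SHP-1 recruited by ITIMs, had a log2 fold change of -0.33 ± 0.12 (SE, edgeR adjusted p = 0.0454), and leaving out any 1 of vehicle replicates 1, 4 and 5 or JHU083 replicates 1, 2, 4 and 5 ended the call (adjusted p up to 0.127). Within the libraries listing the ribosomal-repeat loci at 0 and within the others, the log2 fold changes were -0.33 and -0.83 for Pilra, -0.19 and -0.44 for Ptpn6, and 0.49 and 0.62 for Ceacam1. Pilra did not pass in those at 0, and Ptpn6 and Ceacam1 passed in neither. With the listing at 0 as a covariate over all 10 libraries, Ptpn6 also did not pass (-0.31, edgeR adjusted p = 0.0650).

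**Figure D5:**
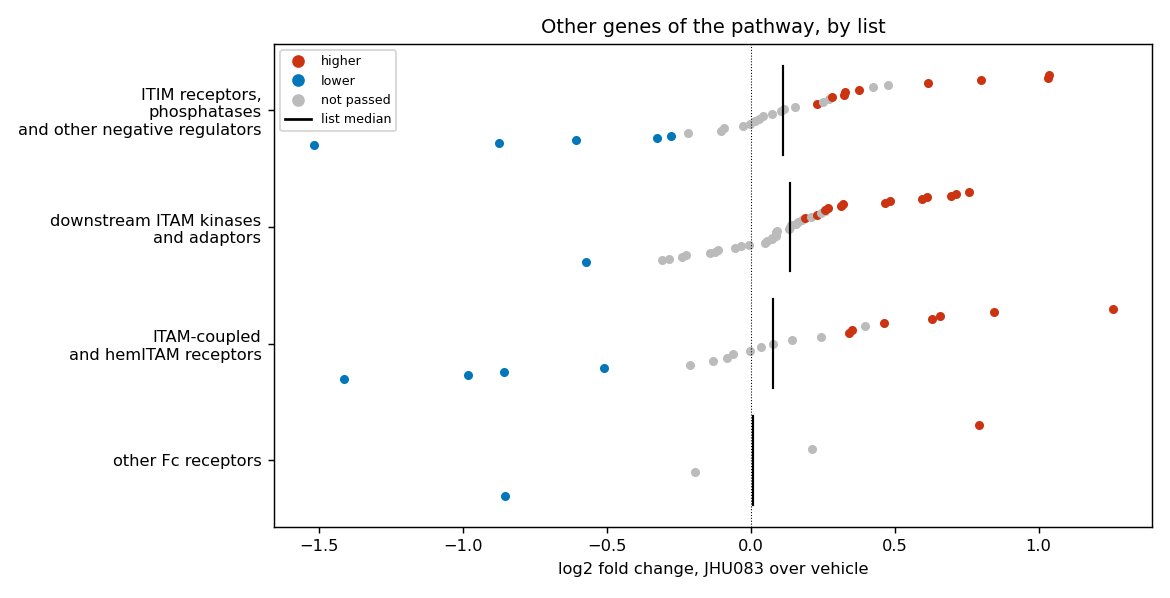
Log2 fold change of JHU083 over vehicle (x axis) for each tested locus of the 4 pathway lists (rows), coloured by its call, with the list median as a black line. Calls in both directions occur in every list, and downstream kinases and adaptors have 13 higher and 1 lower, or 8 higher and 4 lower with library-size scaling.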

How the data were processed

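Libraries were made from poly(A)+ RNA with random priming, per the labels' protocols. The submitters' processing notes name bcl2fastq 2.17.1.14, FastQC 0.11.2, TopHat2 2.1.1 and GRCm38; the counting program and annotation are not given in the sources used here. The authors deposited a raw count column per the file headers, whose values are not whole and were taken to be expected counts; nearly all (99.6% to 99.9%, tolerance 0.05) are whole multiples of a step of 0.888 to 1.17 per library. They were divided by it and rounded. The other deposited column is headed normalized and was taken as FPKM from its values; it was used for levels between genes. A single locus with no symbol was left out (0.0013% to 0.0021% of fragments). Positions came from GENCODE M21 and promoter sequences from RefSeq, matched by symbol.

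Loci were filtered with filterByExpr, scaled with TMM and compared by edgeR 4.0.16 in R 4.3.3 (quasi-likelihood F-test), with no covariate and Benjamini-Hochberg adjustment over all 12500 loci. The SE is the log2 fold change divided by the square root of F, and a prior count of 2 was used for log2 CPM. Marker sums use unscaled totals. The fits were tested on simulated data. Ratios were tested by exact two-sided permutation in scipy 1.17.1, adjusted over the 3 ratios. DESeq2 1.42.0 and limma 3.58.1 were alternatives. From each pathway list up to 4 largest increases and 4 largest decreases past the threshold with an average log2 CPM of at least 2 are named. The genes and lists were chosen with earlier results of these data known. Some genes of these lists are not reported here.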

Additional observations from a re-analysis of the deposited data

Results flagged for a closer look

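In 70 groups of 5 libraries examined for a value far from the others, 4 stood out, and about 3.5 would be flagged by chance. Fcgr4 was lowest in vehicle replicate 3, with a log2 CPM of 7.28, the other 4 vehicle libraries lying from 7.56 to 7.66. Fcrlb was lowest in JHU083 replicate 1, at 4.65 log2 CPM against 5.33 to 5.597. Trem2 was highest in JHU083 replicate 3, at 9.53 log2 CPM against 8.99 to 9.04. Clec4d was lowest in JHU083 replicate 2, at 3.73 log2 CPM against 4.99 to 5.19.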

How the results depend on the processing

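Fcgr3, Fcgr2b, Syk, Fcgrt and Fcrls kept their direction in all 21 alternatives, and Syk and Fcgrt lost the call in 1, the libraries listing Rn18s-rs5 and Gm42418 at 0. All edgeR fits within these libraries and within the others, for single genes and for counts, were added after seeing the data. The ratio comparisons within both sets were planned. Genes lower among the 10 numbered 2 with library-size scaling and 1 with limma-voom, and from 0 to 1 with 1 library left out. Pathway genes numbered 14 higher and 5 lower within the libraries listing those loci at 0, and 15 higher and 10 lower within the others. Fewer libraries were compared in both sets (532 higher and 586 lower, and 1274 and 1545, of all loci, against 2296 and 2293 over all 10 libraries). Fcgr1 (0.00275) changed sign within the libraries at 0 and Tyrobp (-0.0180) within the others, and the cause was not tested. The ratio differences of -0.643 and -0.112 (Fcgr1 and Fcgr3 to Fcgr2b) within the libraries at 0, and of -1.15 and -0.300 within the others, could not pass with so few libraries. With 1 library left out the ratio differences ranged from -1.03 to -0.86 for Fcgr1, from -0.27 to -0.18 for Fcgr3 and from -0.53 to -0.33 for Fcgr4. With the replicate block the Fcgr1 and Fcgr3 ratio differences stayed at -0.945 and -0.221, but an exact paired p cannot fall below 0.0625, so both lost the call. With the replicate block 5 of the 10 genes were higher, and Fcgr4 (0.31), Clec4d (0.57) and Ptpn6 (-0.32) lost the call. In that fit 21 pathway genes were higher and 10 lower, beside 1612 and 1757 of all 12500 loci. Same-numbered libraries shared only a number (0 of 5 correlations above 0.1, mean -0.19, and 0 libraries correlated best with their own number).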
